A study of Mus musculus with 3 samples.

Results

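The expression of 10 genes known from cartilage was followed in cultured mouse preosteoblasts. They are Cnmd, Otor, Panx3, Sox9, Sox5, Sox6, Acan, Comp, Hapln1 and Chad, out of 18193 genes with a probe set of a single gene symbol, and they are read by 26 of 34945 such probe sets. The set was chosen by measured values of these same arrays: Cnmd and Otor because they fell with dimethyl sulfoxide (DMSO), and Panx3 because it rose in osteogenic medium. The values of these 3 genes in those comparisons, and in any that share an array with them, are therefore descriptions. The cells are MC3T3-E1, an established fibroblast-like line from mouse calvaria, the skull vault, of strain C57BL/6. All arrays came from cells kept at 37 °C in MEM α with 10% fetal bovine serum and harvested on day 3. The first condition was osteogenic medium, which adds 10 mM beta-glycerophosphate and, at 150 µM, ascorbic acid 2-phosphate, together with 0.6% DMSO. The others were osteogenic medium without DMSO and normal medium, which has neither the additives nor DMSO.

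Each condition had 1 array, so there is no test, no p-value and no estimate of the spread between cultures, and precision is limited by the single array per condition. Values are log2 probe set signals. A floor of 3.54 was set, the pooled median of the probe set values, and values at or below it carry no order here. Genes differing by 1 or more on the log2 scale, which is 2-fold, are said to have risen or fallen. The nearest thing to a repeat measurement is a different probe set of the same gene: across 5183 genes the difference between the log2 changes of their pair of probe sets had an SD of 0.15 for DMSO against no DMSO and 0.19 for osteogenic against normal medium. Between 22424 and 22539 of 45037 probe sets lay above the floor on each array, which follows from setting it at the pooled median. All 9 osteoblast markers that the array reads by a singly named probe set were above the floor on every array, and so were 7 of 13 chondrocyte markers. Of the chondrocyte markers, Col2a1, Col9a1, Col9a3, Col11a2, Matn3, Snorc and Sox9 were above the floor, and Col9a2, Matn1, Acan, Comp, Hapln1 and Ucma were not. Of 4 markers of hypertrophic cartilage, Col10a1 and Ihh were below it on all arrays, and Mef2c and Mmp13 were above it. None of 3 adipocyte markers was above the floor on any array, and 1 of 4 was for each of skeletal muscle, macrophages and endothelium. Acan, Comp, Hapln1 and Sox9 stand both in the set and among the chondrocyte markers, so these 2 readings overlap. The set is called here genes known from cartilage, with no cell type implied.

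In cartilage, chondrocytes lay down an avascular matrix in which type II collagen fibrils hold aggregates of the proteoglycan aggrecan, bound to hyaluronan through link protein. The transcription factor Sox9 is required for the chondrocyte lineage, and Sox5 and Sox6 act beside it on collagen and aggrecan genes. Osteoblasts and chondrocytes descend from common skeletal progenitors, and several genes, Panx3 among them, are used in both.

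Of the 10 genes, Panx3 alone rose at least 2-fold in osteogenic against normal medium, and none fell. Across all genes, 0.297% rose and 0.115% fell by that rule. With DMSO in osteogenic medium, Cnmd and Otor fell and none rose, where 0.346% of all genes fell and 0.033% rose. Because these calls chose the genes, nothing is read from the counts. In osteogenic medium with DMSO against normal medium, a comparison that shares an array with each of the others, Panx3 rose and Cnmd and Otor fell, beside 0.379% of all genes risen and 0.841% fallen. Of the 10, 6 were above the floor on all 3 arrays, and Acan, Comp, Hapln1 and Chad were below it on all 3. Over all 18193 genes, 11203 were above it on all 3, so nothing is read from that count. Over the 6, the median difference was 0.05 for osteogenic against normal medium and -0.05 for DMSO against no DMSO, beside 0.00 and 0.00 over the 11462 genes above the floor on at least 1 array. In bulk RNA, fewer cells of a type and less RNA per cell cannot be told apart.

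**Figure D1:**
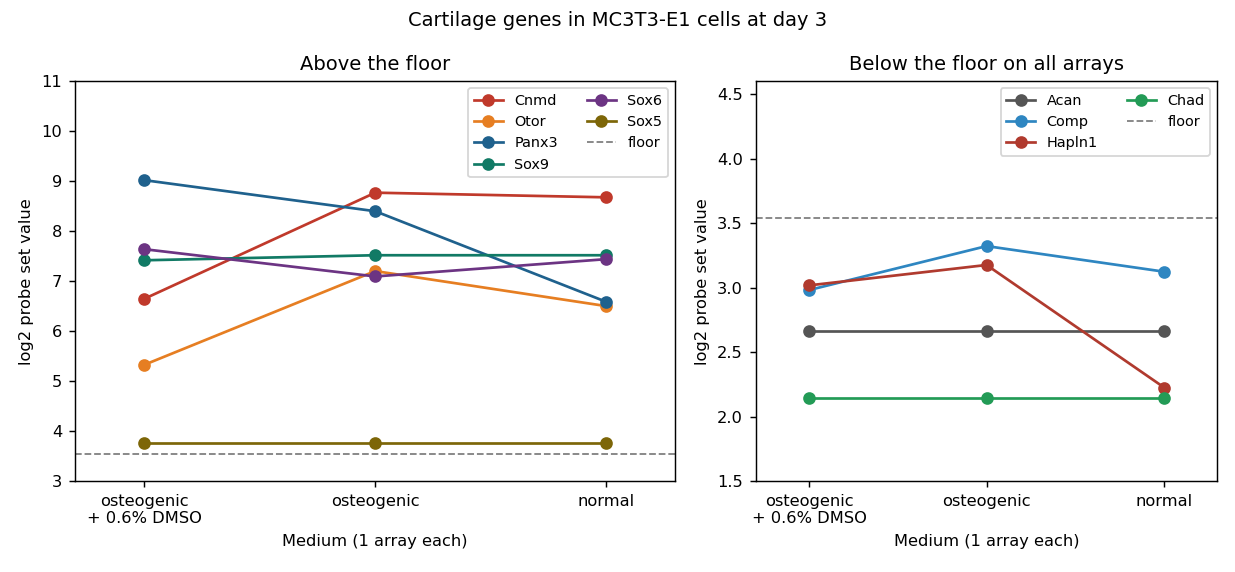
Log2 value of the brightest probe set of each gene (vertical axis) on the arrays of osteogenic medium with DMSO, osteogenic medium and normal medium (horizontal axis). Each point is 1 array, lines join the points of a gene and the dashed line is the floor of 3.54. Cnmd and Otor are lowest with DMSO, Panx3 is lowest in normal medium, and the panel on the right holds the 4 genes below the floor.

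Cnmd encodes chondromodulin, a membrane-anchored glycoprotein of cartilage whose released part inhibits blood vessel growth. Its probe set read 6.65 in osteogenic medium with DMSO, 8.77 in osteogenic medium and 8.68 in normal medium. The array with DMSO was low and the 2 without it lay close together. Cnmd was 4.35-fold lower with than without DMSO in osteogenic medium, the sixth lowest difference of 11462 genes, and 4.08-fold lower than in normal medium. Osteogenic medium alone differed from normal medium by 0.09.

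Otor encodes otoraplin, a small secreted protein of the cochlea and of cartilage that belongs to the family of melanoma inhibitory activity proteins. It read 5.33 in osteogenic medium with DMSO, 7.20 in osteogenic medium and 6.50 in normal medium. The DMSO array was again the lowest, and here osteogenic medium was higher than normal medium. Otor was 3.66-fold lower with than without DMSO and 2.26-fold lower than in normal medium. Its difference between osteogenic and normal medium was 0.70, which is under the 2-fold rule. The interval that held the central 95% of all genes above the floor ended at 0.51. Otor was chosen by a fall that uses the same osteogenic array, so nothing is read from its place against that interval. Cnmd and Otor are each read by 1 probe set, so no second reading of these falls exists on the arrays.

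The promoters of Cnmd and Otor are shown because these genes were low together on the DMSO array. They are the 250 bases upstream of the RefSeq start site, in build GRCm38.p6. For Cnmd the window is chr14:79662184-79662433 on the minus strand, and for Otor chr2:143078143-143078392 on the plus strand. Capitals mark TATAAA, the only searched motif found in either.
Cnmd: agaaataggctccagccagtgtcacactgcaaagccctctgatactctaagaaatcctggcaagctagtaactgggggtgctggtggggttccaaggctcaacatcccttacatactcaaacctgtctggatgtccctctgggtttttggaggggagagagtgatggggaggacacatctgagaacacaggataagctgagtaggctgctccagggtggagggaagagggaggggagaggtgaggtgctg
Otor: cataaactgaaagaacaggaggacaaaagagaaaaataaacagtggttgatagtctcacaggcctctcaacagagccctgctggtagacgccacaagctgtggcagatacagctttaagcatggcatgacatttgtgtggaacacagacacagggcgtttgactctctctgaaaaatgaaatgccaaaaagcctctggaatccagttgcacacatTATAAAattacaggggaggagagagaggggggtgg

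Both strands were searched for TGTGGT (a RUNX core), ACAATG and ACAAAG (SOX cores), CAGGTG (an E-box) and TATAAA, the TATA box, the last added after the sequences had been seen. The Otor window holds TATAAA on the plus strand from position -35 relative to the start site, and the Cnmd window holds none of the 5. Over all 32851 windows of this length, TATAAA occurred in 12.4%, TGTGGT in 14.05%, ACAATG in 10.7%, ACAAAG in 16.5% and CAGGTG in 17.2%. The Cnmd window is 54.0% G and C and the Otor window 46.0%, beside a median of 52.4%. In all, 7 of the 10 genes matched a promoter entry by symbol, with 12 windows. Sox5 has ACAATG, Hapln1 has TGTGGT and Chad has TATAAA, while Acan has none. Each of the Sox6 windows, which belong to alternative start sites, holds at least 1 of the motifs, and 1 of them holds only TATAAA, from position -225. The share of all windows with any of the 5 motifs was not computed, so nothing is read from this. The absence of these letters says nothing of any factor.

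Panx3 encodes pannexin 3, a channel protein of osteoblasts and chondrocytes that passes ATP and calcium ions. Its brightest probe set read 9.02 in osteogenic medium with DMSO, 8.40 in osteogenic medium and 6.59 in normal medium. All 3 arrays differed, with DMSO highest and normal medium lowest, the reverse of where Cnmd stood on the DMSO array. Osteogenic medium was 3.51-fold above normal medium, and osteogenic medium with DMSO 5.39-fold above it, the seventh highest difference of 11462 genes. With against without DMSO the difference was 0.62, or 1.54-fold, which does not reach 2-fold.

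A second Panx3 probe set gave the same order at a dimmer level, with 5.25 in osteogenic medium with DMSO, 4.61 in osteogenic medium and 3.62 in normal medium. Its differences were 0.64 for DMSO against no DMSO and 0.98 for osteogenic against normal medium. The first of these equals that of the brightest probe set within 0.15, the SD between probe sets. The second is under 2-fold and is below the 1.81 of the brightest by more than 0.19, the SD for that comparison. The normal medium value of this dimmer probe set lay just above the floor. Another probe set was below the floor on all arrays. The brightest one belongs to a class that Affymetrix marks with the suffix _s_at, for probes shared by several transcripts.

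**Figure D2:**
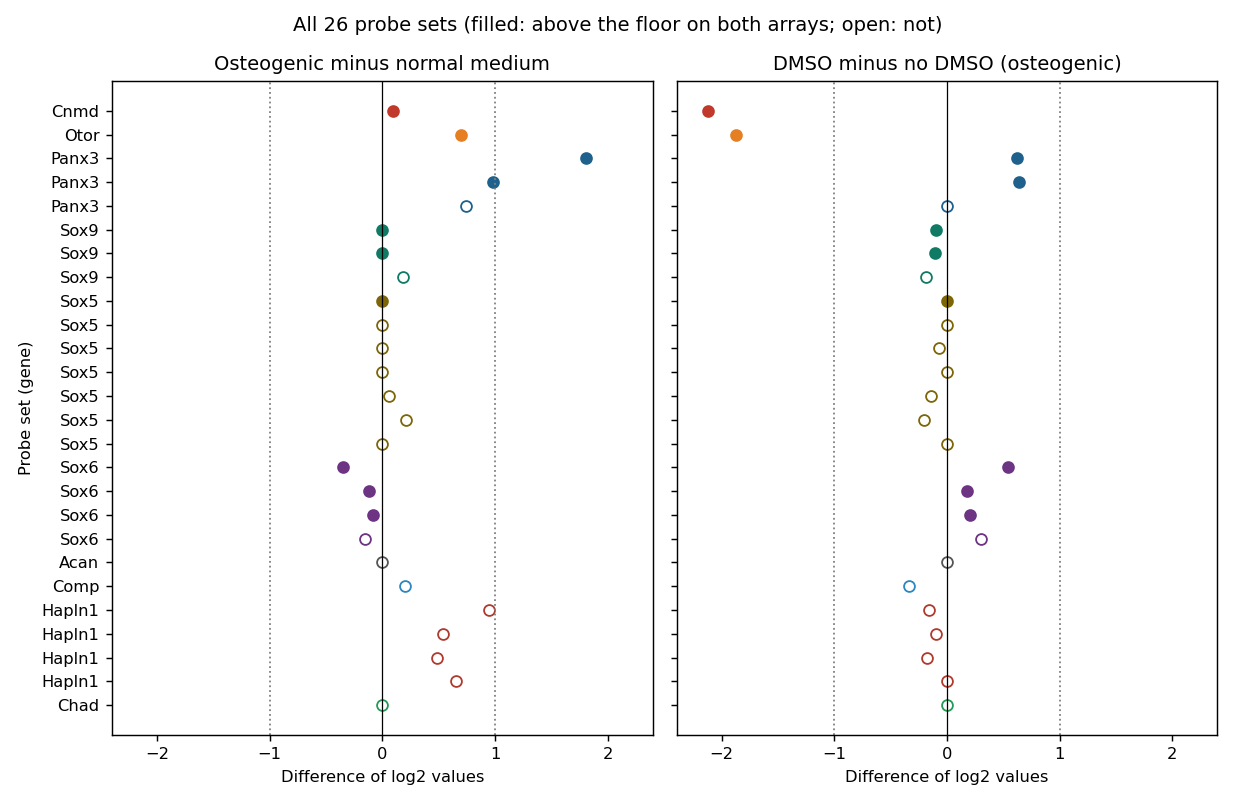
Log2 difference (horizontal axis) for each of the 26 probe sets of the 10 genes (vertical axis), osteogenic minus normal medium on the left and with minus without DMSO in osteogenic medium on the right. Filled points were above the floor on both arrays, open points were not, and dotted lines mark a 2-fold difference. Cnmd, at -2.12, and Otor, at -1.87, stand apart on the right, and the brightest Panx3 probe set, at 1.81, on the left.

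None of the SOX genes changed 2-fold. Sox9, which directs the chondrocyte lineage, read 7.42 in osteogenic medium with DMSO and 7.52 in each of the other media, and a second probe set read 6.57 with DMSO and 6.68 in each of the others. Both were 0.10 to 0.11 lower with DMSO and exactly equal between osteogenic and normal medium. Equal values are common here, since 20.4% of probe sets above the floor on all arrays had the same value on each, and 37.4% of all probe sets did. Another Sox9 probe set was below the floor.

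Sox6, a partner of Sox9 without an activation domain of its own, read 7.64 in osteogenic medium with DMSO, 7.09 in osteogenic medium and 7.44 in normal medium. Osteogenic medium without DMSO was the lowest array. The differences were 0.54 for DMSO against no DMSO and -0.35 for osteogenic against normal medium. Another 2 probe sets above the floor on all arrays had the same order with smaller differences, 0.18 and 0.20 for DMSO and -0.11 and -0.08 for osteogenic medium. The fourth was above the floor only with DMSO, so it gives no order between osteogenic and normal medium. No Sox6 probe set reached 2-fold, and under the median of its probe sets the DMSO difference is 0.19. In the brightest probe set the DMSO array differed from normal medium by 0.20.

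Sox5, the close relative of Sox6, has 7 probe sets, of which 1 was above the floor, with 3.77 on every array. The other 6 were below it, so for Sox5 no difference was detectable at these signals. Thus of the 3 SOX genes only Sox6 showed differences above the SD between probe sets, and in its dimmer probe sets those for osteogenic medium were below that SD. That SD compares probe sets on the same arrays and does not hold the spread between cultures.

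The matrix genes of the set were dim. Acan, which encodes aggrecan, read 2.67 on each array, and Chad, the collagen-binding leucine-rich protein chondroadherin, read 2.15 on each. Comp, cartilage oligomeric matrix protein of the thrombospondin family, read 2.98 in osteogenic medium with DMSO, 3.32 in osteogenic medium and 3.12 in normal medium. All of these are below the floor of 3.54, so the arrays give only an upper bound on the signal and no order.

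Hapln1, the link protein that ties aggrecan to hyaluronan, was read by 4 probe sets, all below the floor. The brightest read 3.02 in osteogenic medium with DMSO, 3.18 in osteogenic medium and 2.23 in normal medium. In all 4 the deposited value was higher in osteogenic than in normal medium, by 0.49 to 0.95, and with against without DMSO the differences ran from -0.18 to 0.00. Since each value is below the floor, these are given as deposited and not counted as a change.

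**Figure D3:**
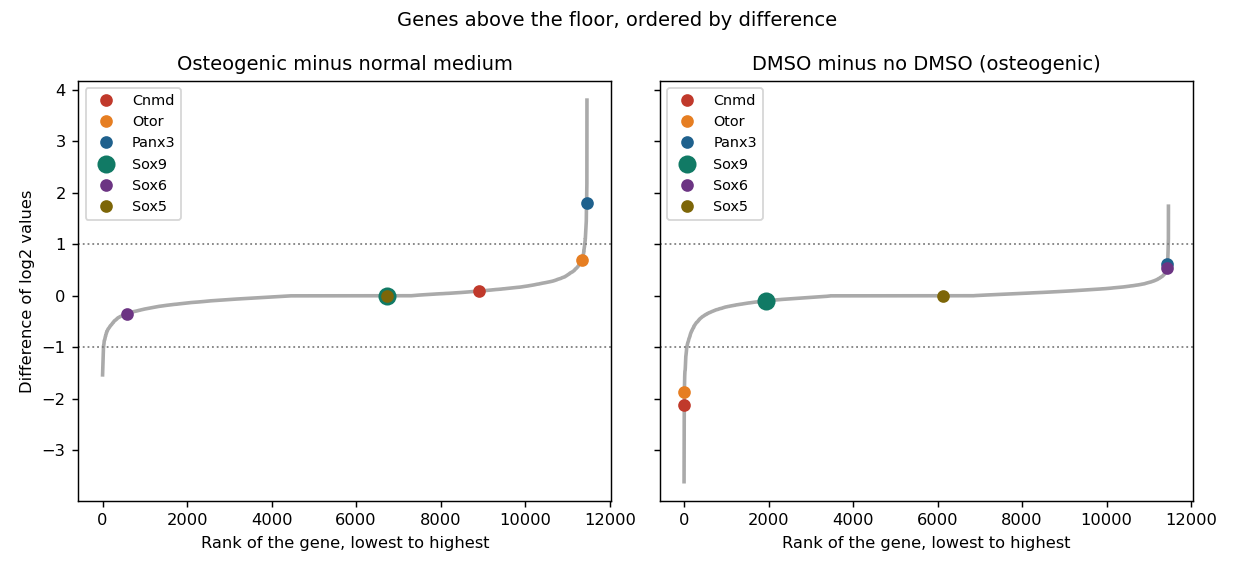
The 11462 genes above the floor on at least 1 array ordered by log2 difference (horizontal axis, rank; vertical axis, difference), osteogenic minus normal medium on the left and with minus without DMSO on the right. Coloured points are the 6 genes of the set above the floor, with Sox9 and Sox5 together at 0 on the left, and dotted lines mark 2-fold. Cnmd and Otor lie at ranks 6 and 8 from the low end on the right.

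Relatives of the 10 genes were listed apart, as the other members of their protein families. Of 25, 17 were above the floor, and none changed 2-fold in osteogenic against normal medium or with against without DMSO. The median of the 17 was 0.00 in both. Of the 11462 genes above the floor on at least 1 array, 54 rose and 21 fell in osteogenic against normal medium. With against without DMSO, 6 rose and 63 fell. These counts stand beside each list and marker group below, and nothing is read from a short list in which no gene changed 2-fold. Tnmd, which encodes tenomodulin, the closest relative of chondromodulin and a marker of tendon, read 3.83 in osteogenic medium with DMSO, 4.70 in osteogenic medium and 4.71 in normal medium. Like Cnmd it was low only on the DMSO array, at -0.86 against osteogenic medium, but it was dim with DMSO and is read by 1 probe set. Panx1, a widely expressed pannexin, read 5.60 with DMSO, 5.45 in osteogenic medium and 5.60 in normal medium, and so lacked the difference of Panx3 between osteogenic and normal medium.

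Vcan encodes versican, the large proteoglycan that is a relative of aggrecan. It read 6.92 in osteogenic medium with DMSO, 7.35 in osteogenic medium and 6.57 in normal medium. Its difference for osteogenic against normal medium was 0.78, with 0.81 and 0.50 in another 2 probe sets above the floor. With against without DMSO these 3 stood at -0.43, -0.26 and -0.18. Omd, the leucine-rich osteomodulin of bone, was at 0.97 for osteogenic against normal medium and 0.34 for DMSO. Thbs1, thrombospondin 1, a relative of Comp, was at 0.05 and -0.47. Sox8 and Sox10, of the family of Sox9, and Sox13, of the family of Sox5 and Sox6, differed by 0.13 or less in either comparison.

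Other cartilage matrix genes were given by a list of 27, of which 15 were above the floor. In osteogenic against normal medium 1 rose and 1 fell, 5 were above 0 and 9 below, with a median of -0.06. Col11a2, a chain of the type XI collagen that nucleates cartilage fibrils, rose by 1.38. It read 5.31 in osteogenic medium with DMSO, 5.54 in osteogenic medium and 4.16 in normal medium. Vit, which encodes the matrix protein vitrin, fell by 1.51. It read 3.87 in osteogenic medium with DMSO, 4.54 in osteogenic medium and 6.05 in normal medium.

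Col2a1, the type II collagen gene that defines cartilage, read 8.08 in osteogenic medium with DMSO, 8.01 in osteogenic medium and 7.16 in normal medium. Its difference of 0.85 for osteogenic against normal medium was short of 2-fold, and the DMSO array stood with the osteogenic one. Matn3, matrilin 3, was at 0.67 and 0.16 in the 2 comparisons. Col9a3 was at 0.40 and -0.40, with equal values of 3.97 with DMSO and in normal medium. With against without DMSO, none of the 15 changed 2-fold and the median was 0.00, with Vit at -0.68. Col2a1, Col11a2 and Matn3 thus shared with Panx3 a higher value in both osteogenic media than in normal medium, and none had the fall of Cnmd and Otor with DMSO.

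**Figure D4:**
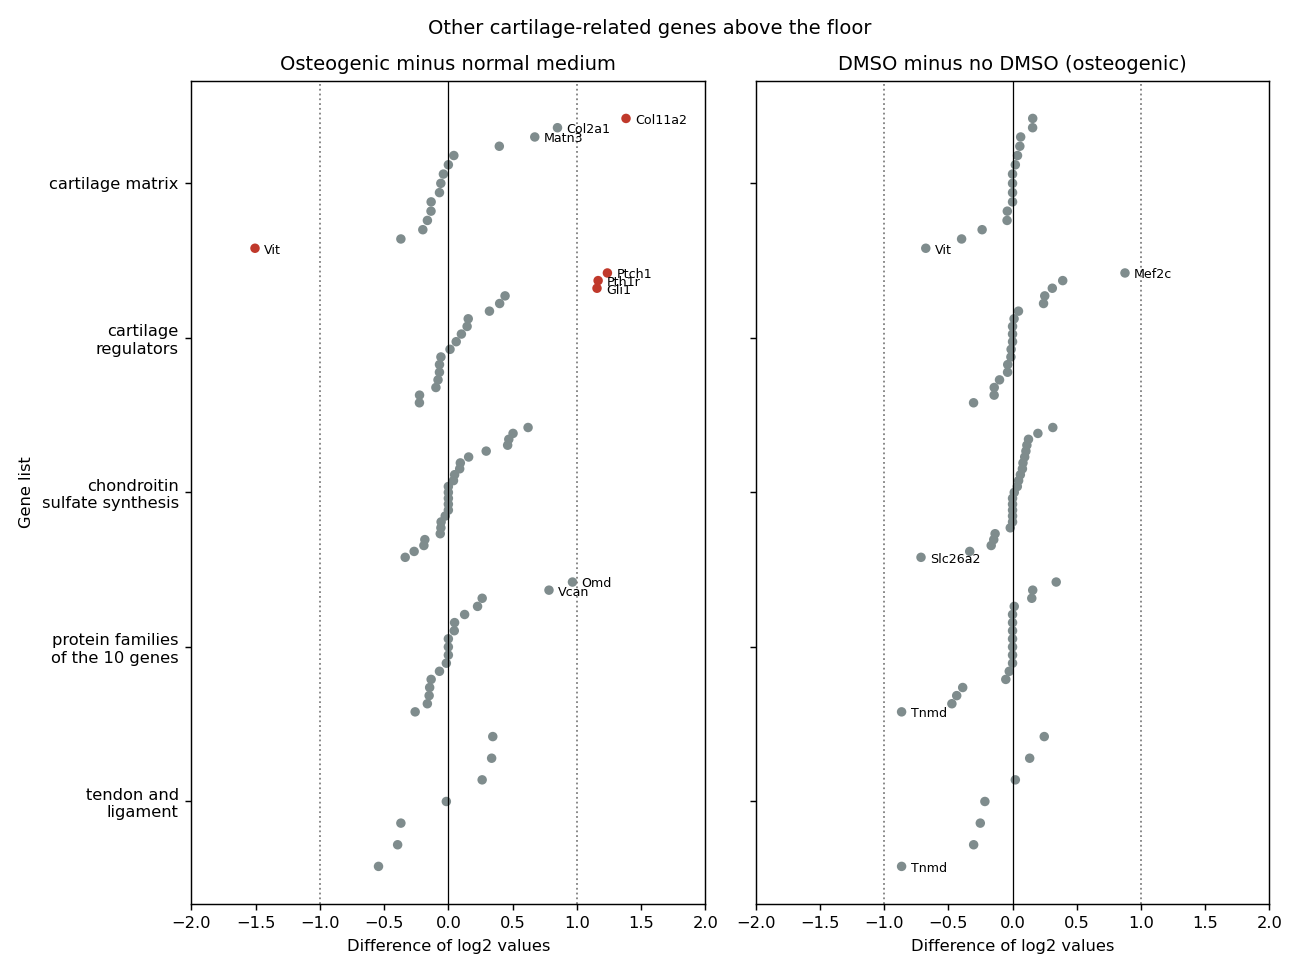
Log2 difference (horizontal axis) of each gene above the floor on at least 1 array in 5 lists of other genes (vertical axis), osteogenic minus normal medium on the left and with minus without DMSO on the right. Values below the floor were raised to it, so Gli1 on the left is a bound, red points changed at least 2-fold and dotted lines mark that size. In the panel on the right no listed gene changed 2-fold.

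Cartilage regulators were listed as 30 genes, of which 18 were above the floor. In osteogenic against normal medium 3 rose and none fell, with a median of 0.08, beside 54 risen and 21 fallen of 11462 genes. Ptch1, the hedgehog receptor and a target of that pathway, rose by 1.24 and Pth1r, the receptor of parathyroid hormone and its related peptide, by 1.17. Gli1, another hedgehog target, was below the floor in normal medium and at least 2.23-fold higher in osteogenic medium. With against without DMSO none changed 2-fold and the median was 0.00. In osteogenic medium with DMSO against normal medium 4 rose, Mef2c being the addition. Mef2c, a factor of chondrocyte hypertrophy and of muscle, was at 0.88 with DMSO, and 2 further probe sets gave 0.74 and 0.75. It read 5.11 in osteogenic medium with DMSO, 4.24 in osteogenic medium and 3.84 in normal medium. Fgfr3 was at 0.44 for osteogenic against normal medium and 0.24 for DMSO, Runx3 at 0.32 and 0.00, and Wwp2 at 0.15 and -0.30. Pth1r is also an osteoblast gene and stands in the osteoblast marker list.

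Of 28 genes for making chondroitin sulfate and its precursors, 23 were above the floor and none changed 2-fold in either comparison, and their medians were 0.00 between osteogenic and normal medium and 0.01 with against without DMSO. Slc26a2, the sulfate carrier on which cartilage proteoglycan sulfation depends, read 7.09 in osteogenic medium with DMSO, 7.81 in osteogenic medium and 8.14 in normal medium. All 3 of its probe sets had this order, and they were lower with than without DMSO by 0.55 to 0.71. Against normal medium the DMSO array was lower by 1.05 in the brightest. Papss2, which makes the sulfate donor, was at 0.62 for osteogenic against normal medium and 0.05 for DMSO. Chst15 was at 0.50 and 0.10, and B4galt7 at 0.47 and -0.15. Other probe sets of these genes above the floor gave smaller differences for osteogenic against normal medium. Those of Papss2 were at 0.39 and 0.24, and that of Chst15 was at 0.14, with 0.27 for DMSO. That of B4galt7 read 4.54 on every array.

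Tendon and ligament genes bear on Cnmd through its relative Tnmd. Of 10, 7 were above the floor and none changed 2-fold, with 3 above 0 and 4 below in each comparison. Their medians were -0.02 for osteogenic against normal medium and -0.22 for DMSO. Scx, a tendon transcription factor, was at -0.54 and -0.25, though a second probe set read 4.48 on all arrays. Dcn was at -0.39 and -0.22, and Fmod at -0.37 and 0.02. Others ran the other way between osteogenic and normal medium, with Tnc at 0.35 and 0.25, Mkx at 0.34 and -0.30 and Egr1 at 0.26 and 0.13. A second Tnc probe set above the floor gave 0.66 and -0.07, so the sign for DMSO was not shared.

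Genes with the pattern nearest to Cnmd and to Panx3 were found by the Euclidean distance between deviations from each gene's own mean over the 3 arrays, among the 11203 genes above the floor on all of them. A pattern over 3 arrays has few degrees of freedom, so likeness here is a description. Nearest to Cnmd were Tnnc1, a troponin of slow and cardiac muscle (distance 0.265), Iqgap2 (0.334), Apod (0.366), Tgm2, a transglutaminase (0.414), and Cd200 (0.442). Tnnc1 read 5.85 in osteogenic medium with DMSO, 7.62 in osteogenic medium and 7.59 in normal medium. All 5 were low on the DMSO array, at -1.52 to -1.77 against osteogenic medium, which follows from picking them by likeness to Cnmd. A second probe set of Iqgap2 showed a smaller difference of -0.88, and the other 4 Tgm2 probe sets above the floor also showed smaller ones, down to -0.74. Otor, which was higher in osteogenic than in normal medium, was not among them.

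Nearest to Panx3 were Alpl, the alkaline phosphatase of mineralizing cells (distance 0.0839), Notum, a Wnt inhibitor (0.130), Ibsp, bone sialoprotein (0.263), Lepr, the leptin receptor (0.294), and Smpd3, a sphingomyelinase (0.304). Alpl read 9.02 in osteogenic medium with DMSO, 8.31 in osteogenic medium and 6.61 in normal medium. Its differences were close to those of the brightest Panx3 probe set, the only one used for the distances. The second Panx3 probe set was at 0.98 for osteogenic against normal medium, below the 1.70 of Alpl. Other probe sets of Lepr above the floor in osteogenic medium gave 1.40 and 0.43 for osteogenic against normal medium, the second a value at the floor in normal medium. Of the osteoblast markers, 4 of 9 rose in osteogenic against normal medium, with a median of 0.88, and 1 of 9 with DMSO, with a median of 0.38. Of the 7 chondrocyte markers above the floor, 1 rose in osteogenic against normal medium, and the medians were 0.40 for that comparison and -0.04 for DMSO. Mmp13, a collagenase of hypertrophic chondrocytes and of osteoblasts, fell in both comparisons, with 4.69 in osteogenic medium with DMSO, 6.32 in osteogenic medium and 7.72 in normal medium. Whether either cell state has a part in the values of Panx3 was not tested.

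**Figure D5:**
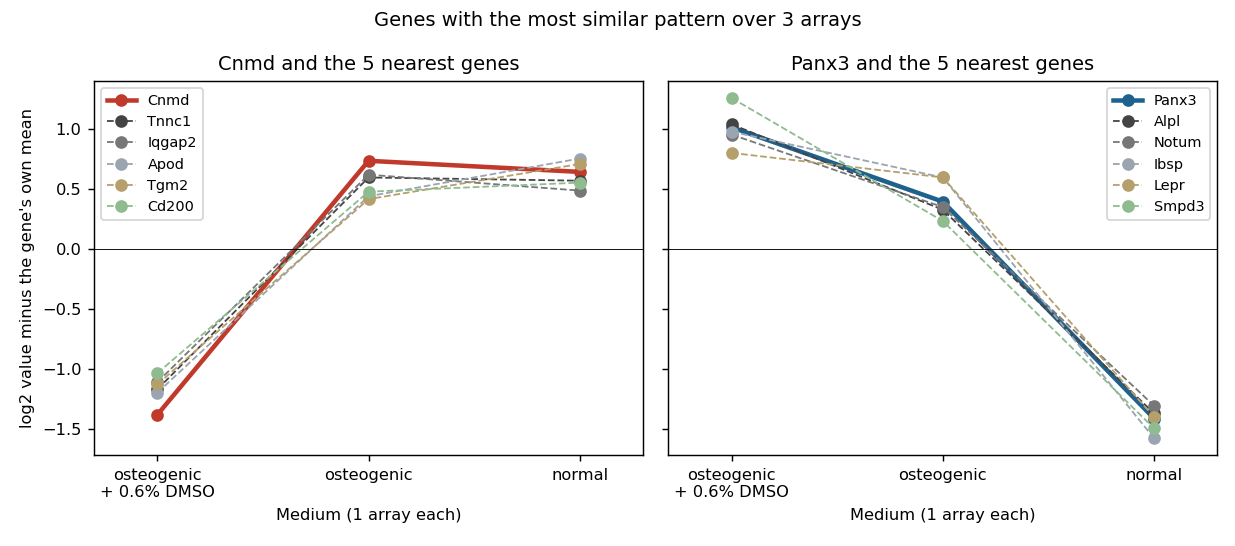
Log2 value minus the gene's own mean over the 3 arrays (vertical axis) for Cnmd on the left and Panx3 on the right, each with its 5 nearest genes as dashed lines, by medium (horizontal axis, 1 array each). The genes beside Cnmd are low with DMSO and the genes beside Panx3 are low in normal medium, which follows from picking them by likeness.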

How the data were processed

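RNA of 3 cultures was hybridised to 3 Affymetrix mouse arrays, 1 per condition, which the labels' descriptions name. The deposited values were taken as log2, from their range of 0.652 to 13.4. How the authors summarised and normalized them, and the log base, the sources used here do not give. The array medians were 3.54 to 3.57. Of 45037 probe sets that are not controls, 34945 had 1 gene symbol in the 2016 platform annotation. A gene with several was read by the one whose mean over the arrays was highest, and values were raised to a floor at the 50th percentile. Genes named are all 10 of the set, list genes changed 2-fold and up to 4 more per list with the largest differences, and the 5 nearest patterns. A few relatives, tendon genes and hedgehog genes were named after their values were seen. The genes and lists were chosen with earlier results of these data known. The code was tested on simulated data. Sequences are from RefSeq. Python 3.11.15 with numpy 2.4.6 and pandas 2.3.3, and R 4.3.3 with limma 3.58.1 for the alternative scalings, were used.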

Additional observations from a re-analysis of the deposited data

How the results depend on the processing

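Floors at the 40th and 60th percentiles, no floor, the median over all probe sets of a gene, quantile normalization, cyclic loess normalization and a 1.5-fold threshold were tried. The falls of Cnmd and Otor with DMSO, by which these genes were chosen, passed 2-fold under each that kept that threshold. Only the quantile and cyclic loess normalizations could alter these falls. The floor settings left the values as they were, and each of these genes has 1 probe set. The differences of Cnmd and Otor against osteogenic medium ranged from -2.14 to -2.12 and from -1.88 to -1.86. For osteogenic against normal medium, the count of genes of the set changed at least 2-fold was 1. With the median over all probe sets it was 0, because the median Panx3 probe set is the dimmer one, at 0.98. With the 1.5-fold threshold it was 2, Panx3 and Otor. Of 108 recomputed differences of single genes, 104 moved by less than the SD between probe sets, and the other 4 were those of Panx3 and Sox6 with the median over probe sets. Many of the 104 could not have moved, so that count is no measure of stability. The floor settings returned the main value for every gene, and the median over probe sets cannot alter a gene with 1 probe set. No value of 2-fold size changed sign. No paired analysis was possible because each condition had 1 array, and no array could be left out. Signal over background limits the dim genes: 15 of the 26 probe sets were below the floor on all arrays.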

Other observations

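Hedgehog pathway genes, looked at after Ptch1 and Gli1 had been seen, did not all move together. Ptch1 read 9.08 in osteogenic medium with DMSO, 8.77 in osteogenic medium and 7.53 in normal medium, but another probe set read 3.66 on all 3 arrays. Gli1 read 4.66 in osteogenic medium with DMSO, 4.70 in osteogenic medium and 3.23, below the floor, in normal medium. The ligand genes Ihh, Shh and Dhh and the decoy receptor gene Hhip, itself a hedgehog target, were below the floor on all arrays. Smo, the signal transducer, was at 0.12 for osteogenic against normal medium and 0.05 for DMSO against no DMSO. A second Smo probe set above the floor gave -0.10 and 0.13. Gas1, a hedgehog co-receptor, was lower in both comparisons, at -0.42 and -0.42, and at -0.60 and -0.45 in a second probe set. Sufu read 6.32 on every array.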
